A study of Mus musculus with 2 samples.

Results

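Langerhans and dendritic cells were taken from single-cell RNA sequencing of mouse dorsal skin as the cells in which unique molecular identifiers (UMIs, 1 per captured RNA molecule) of a small group of marker genes were found. Members were chosen by measured values alone. In each cell that passed the filter (UMIs from 200 to 45000, genes from 100 to 7500, mitochondrial share of 10% or less), the UMIs of Cd207, Flt3, Xcr1, Clec9a, Ccr7 and Zbtb46 were summed. A cell was a member when this sum was at least 3 UMIs and exceeded the sum of Il1b, Ccr2, Mefv and Lyz1, when C1qa, C1qb and C1qc together stayed under 0.1% of its UMIs, and when Col1a1, Col1a2, Col3a1 and Dcn together stayed under 2%. The rule found 310 of 17492 filtered cells (17990 were deposited): 178 of 8875 in the wildtype library and 132 of 8617 in the Eppk1 knockout library. Members with 2 or more Cd207 UMIs (Cd207-high, 139 wildtype and 110 Eppk1 knockout cells) were described apart from the rest (Cd207-low, 39 and 22 cells).

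Whole skin came from 6 mm punches of untreated dorsal skin of 1 wildtype C57BL/6J mouse and 1 Eppk1 knockout mouse backcrossed to C57BL/6J, and ages were not given in the sources used here. Eppk1 encodes epiplakin, a keratin-binding plakin protein of epithelia, and neither the allele nor the place of the probes relative to the deleted part was given. Cells were dissociated with enzymes, fixed, and profiled with probe pairs that are ligated on the RNA (10x Genomics Flex). With 1 mouse and 1 library per genotype, no difference could be tested, no p-value is given, and the spread between mice is unknown. All intervals are exact 95% intervals that cover counting error only. The filtered libraries held 60671929 and 52743301 UMIs, with medians of 4963 and 5006 UMIs per cell. In all, 1211 droplet barcodes occurred in both libraries, which is possible in this assay because each sample carries its own probe barcode, and they held 35 wildtype and 20 Eppk1 knockout members.

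Langerhans cells are the antigen-presenting cells of the epidermis. They carry langerin, the product of Cd207, display peptides on class II molecules of the major histocompatibility complex, depend on Csf1r signalling, and move to lymph nodes through the chemokine receptor Ccr7 once they mature. Conventional dendritic cells of the dermis are usually divided into a type 1 lineage, which depends on Irf8 and carries Xcr1 and Clec9a, and a type 2 lineage, which carries Sirpa, Mgl2 and often Cd209a. Dermal type 1 cells can also carry langerin.

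The deleted gene was examined first. In Cd207-high cells, Eppk1 (chr15:76101481-76120195) stood at 1508 UMIs, or 1496 counts per 1000000 UMIs (CPM), in the wildtype and at 66 UMIs, or 88.7 CPM, in the Eppk1 knockout library, a log2 ratio of -4.07 (interval -4.45 to -3.72). In keratinocytes it was 3364 and 850 CPM (log2 ratio -1.98), and in fibroblasts 137 and 25.1 CPM. The direction followed the labels in all 3 cell types, and UMIs of the gene remained in the Eppk1 knockout library. Among Cd207-high cells with keratins under 0.1% of their UMIs, Eppk1 was at 9 and 4 UMIs (log2 ratio -1.06, interval -3.31 to 0.69). Most Eppk1 UMIs of Cd207-high cells therefore came from cells with keratins (Krt5, Krt14, Krt15, Krt1 and Krt10) at 0.1% or more of their UMIs. Such cells numbered 39 of 139 and 24 of 110 and held 49.1% and 31.8% of the UMIs of Cd207-high cells.

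Cells close to the limits were few among the Cd207-high cells and common at the lower end of the sum. Exactly 3 UMIs of the 6 marker genes were found in 18 wildtype and 7 Eppk1 knockout members, while 74 and 37 cells had 2 UMIs and stayed outside. A sum of 3 or more that did not exceed Il1b, Ccr2, Mefv and Lyz1 kept 23 and 47 cells out. The C1q limit removed 18 and 6 further cells, and the collagen limit 16 and 16. Exactly 2 Cd207 UMIs were found in 1 Cd207-high cell per library, and a single Cd207 UMI in 2 and 1 Cd207-low cells. Between 2 and 5 Cd207 UMIs were found in 7 of 139 and 6 of 110 Cd207-high cells.

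Genes outside the rule were used to check the label in Cd207-high cells. Cd207 itself was used to choose them. In the wildtype library they held 2 to 283 Cd207 UMIs (median 53), and in the Eppk1 knockout library 2 to 189 (median 48.5). Mfge8, which encodes a bridging protein for the uptake of dying cells and is a marker of Langerhans cells, was at 5388 CPM in wildtype cells, against 6142 CPM in Eppk1 knockout cells. Epcam, an adhesion molecule of Langerhans cells and epithelia, had a UMI in 89.2% and 88.2% of the cells. Csf1r, the receptor for the growth factors on which Langerhans cells depend, was at 776 and 829 CPM, and Il1r2, the decoy receptor for interleukin 1, at 3421 and 3595 CPM. By contrast, Flt3, a growth factor receptor of conventional dendritic cells, had a UMI in 5 and 2 cells, and Zbtb46, a transcription factor of that lineage, in 18 and 22 cells. Ccr7 had a UMI in 38 and 41 cells. Flt3, Zbtb46 and Ccr7 are genes of the rule as well, and their counts are a description.

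The 4 most abundant class II genes (H2-Aa, H2-Ab1, H2-Eb1 and the invariant chain gene Cd74) took a median of 11.3% of the UMIs of a Cd207-high cell in the wildtype (1.53% to 20.6%) and 12.6% in the Eppk1 knockout library (1.39% to 18.8%). All 249 Cd207-high cells were above 1%, and the ranges of both libraries overlapped almost entirely. Cd74 was at 30282 and 36678 CPM, against 115 and 132 CPM in keratinocytes of the same libraries. Promoters of 2 of these genes are shown because H2-Aa and H2-Eb1 each had a UMI in 100% of Cd207-high cells of both libraries and held the motif marked below. H2-Ab1 and Cd74 are not among the class II genes with a match. In capitals stands the core of the Y box, CTGATTGG, an element of class II promoters that binds the factor NF-Y (bases before the start site, RefSeq, GRCm38.p6, gene strand, chr17:34287824-34288073 on the minus strand for H2-Aa and chr17:34305617-34305866 on the plus strand for H2-Eb1).
H2-Aa: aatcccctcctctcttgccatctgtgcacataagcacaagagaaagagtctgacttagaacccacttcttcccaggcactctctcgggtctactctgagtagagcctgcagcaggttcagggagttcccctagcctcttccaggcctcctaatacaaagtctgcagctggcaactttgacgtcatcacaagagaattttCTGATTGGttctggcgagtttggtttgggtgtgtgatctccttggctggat
H2-Eb1: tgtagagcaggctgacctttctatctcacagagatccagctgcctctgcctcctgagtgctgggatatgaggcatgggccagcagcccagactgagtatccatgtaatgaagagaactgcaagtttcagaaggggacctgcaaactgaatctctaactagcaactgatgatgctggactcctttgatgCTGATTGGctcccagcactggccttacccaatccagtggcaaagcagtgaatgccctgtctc
The core lay 44 to 51 bases before the start of H2-Aa and 55 to 62 bases before that of H2-Eb1. It was searched on both strands, does not overlap the other motif searched, and occurred in 1258 of 32851 mouse promoters of this length (3.83%) and in 4 of 17 promoters of the class II list (H2-Aa, H2-Eb1, H2-Eb2 and H2-Oa). The match is a description of the letters in this window.

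**Figure D1:**
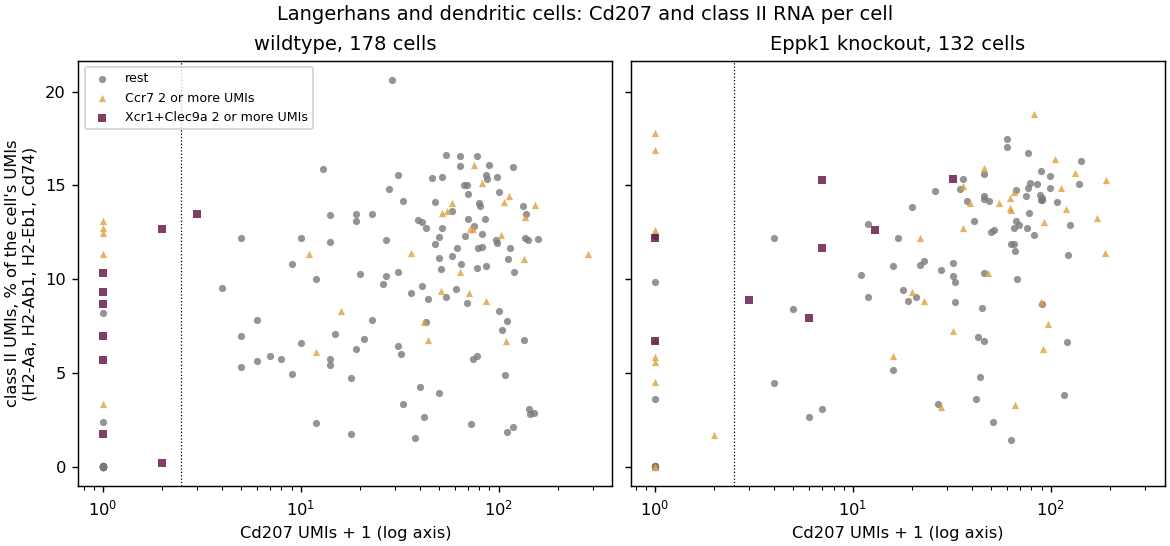
Each point is 1 member, with its Cd207 UMIs plus 1 (x axis, log scale) and the percent of its UMIs from H2-Aa, H2-Ab1, H2-Eb1 and Cd74 (y axis), with wildtype cells on the left and Eppk1 knockout cells on the right. Cd207-high cells (right of the dotted line) lay between 1.39% and 20.6% in class II genes, whereas the Cd207-low cells fell into a group with class II RNA and a group at or near 0%.

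Within the Cd207-high cells, 25 wildtype cells (18.0%, interval 11.99 to 25.4) and 29 Eppk1 knockout cells (26.4%, interval 18.4 to 35.6) held 2 or more Ccr7 UMIs. The intervals overlapped. Against the remaining Cd207-high cells without Xcr1 or Clec9a, 9 of 2784 genes were at least 2-fold higher in the Ccr7 cells of both libraries (0.323%) and 11 were at least 2-fold lower (0.395%). Of 11 mature and migratory dendritic cell genes counted, 1 was at least 2-fold higher in both libraries and 0 were lower. Their median log2 ratio was 0.85 in the wildtype and 0.23 in the Eppk1 knockout library. Costimulation and checkpoint ligands were higher for 0 of 5, class II genes for 0 of 11, and chemokines and receptors for 2 of 5. The genes named here were chosen after their values were seen and do not stand for these lists. Irf4, a transcription factor of activated dendritic cells, was at 193 against 48.4 CPM in the wildtype and 128 against 51.2 CPM in the Eppk1 knockout library. Icam1, an adhesion molecule induced on activation, was at 804 against 269 CPM and 625 against 305 CPM. Ccl22, a chemokine of mature dendritic cells, was higher in the Ccr7 cells mainly through 1 cell per library, which held 191 of 198 UMIs in the wildtype and 109 of 116 in the Eppk1 knockout library. Of the genes that were lower, Bmp2 had 0 against 50 UMIs in the wildtype and 10 against 49 UMIs in the Eppk1 knockout library. The sums behind these counts were unequal, at 160398 against 846328 UMIs and 235167 against 468831 UMIs. Keratinocyte markers had a median log2 ratio of -3.01 in the wildtype and -0.42 in the Eppk1 knockout library, with 1 of 16 lower in both. How many Cd207-high cells held Ccr7, Fscn1, Ccl22 and Il4i1 together, the genes of a mature state, is not given here. An example was a wildtype cell with 37 Ccr7, 38 Fscn1, 191 Ccl22 and 15 Il4i1 UMIs beside 50 Cd207 UMIs.

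A small number of Cd207-high cells had a type 1 profile. Xcr1 and Clec9a together reached 2 or more UMIs in 1 wildtype cell (0.719%) and in 6 Eppk1 knockout cells (5.45%, interval 2.03 to 11.5). They held 2 to 31 Cd207 UMIs, 0 Mfge8 UMIs, at most 2 Epcam UMIs and between 7.93% and 15.3% class II RNA. Irf8 (chr8:120736358-120756694), the transcription factor of that lineage, was at 2621 CPM in the 6 Eppk1 knockout cells, against 448 CPM over all Cd207-high cells of the library. The wildtype cell had 1222 UMIs, which is too few for a level.

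Genes of the cell cycle were read as shares of cells. Mki67 or Top2a, genes of dividing cells, had a UMI in 48 of 139 wildtype cells (34.5%, interval 26.7 to 43.1) and in 32 of 110 Eppk1 knockout cells (29.1%, interval 20.8 to 38.5). At least 2 UMIs of both genes combined were found in 28 (20.1%, interval 13.8 to 27.8) and 17 cells (15.5%, interval 9.27 to 23.6). With cells thinned to 2000 UMIs, Mki67 was found in 14.8% (interval 9.29 to 21.9) and 10.4% (interval 5.30 to 17.8) of Cd207-high cells, against 0.775% and 0.456% of fibroblasts and 4.18% and 5.39% of keratinocytes. Top2a, thinned in the same way, was found in 4.44% (interval 1.65 to 9.42) and 1.89% (interval 0.229 to 6.65) of Cd207-high cells and in 3.30% and 3.60% of keratinocytes. Mki67 was at 97.2 and 133 CPM in Cd207-high cells and at 10.7 and 3.40 CPM in fibroblasts. The intervals of both libraries overlapped. Mki67 or Top2a also had a UMI in 5 of 14 and 1 of 9 Cd207-low cells with class II RNA, described below. The cell cycle list summed to 631 and 810 CPM in Cd207-high cells and to 835 and 528 CPM in the monocyte-like cells defined below. Of 5 list genes counted, 0 were at least 2-fold higher or lower in Cd207-high than monocyte-like cells in both libraries. Over all 5309 genes counted, 6.63% were higher and 9.4% lower.

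The Cd207-low cells were of several kinds, and the label held for fewer of them. Class II genes at 1% or more of the UMIs, with fewer than 5 UMIs of B and plasma cell markers, were found in 14 of 39 wildtype and 9 of 22 Eppk1 knockout cells. Their class II share had a median of 8.99% and 12.2%. Of these 23 cells, 7 wildtype and 2 Eppk1 knockout cells held 2 or more UMIs over Xcr1 and Clec9a combined, and 5 and 4 held 2 or more Ccr7 UMIs. Xcr1 itself had a UMI in 3 and 2 of these cells, and Clec9a in all 7 and 2. A wildtype cell with 8 Clec9a and 35 Irf8 UMIs and an Eppk1 knockout cell with 4 Clec9a and 24 Irf8 UMIs had the genes of type 1 dendritic cells. A wildtype cell with 26 Ccr7, 48 Fscn1, 43 Ccl22 and 24 Il4i1 UMIs and an Eppk1 knockout cell with 35 Ccr7, 0 Fscn1, 24 Ccl22 and 10 Il4i1 UMIs had all or some of those of mature dendritic cells. Fscn1 had 0 UMIs in all 9 Eppk1 knockout cells with class II RNA. Mgl2 (16 UMIs in a wildtype cell) and Cd209a with Mgl2 (4 and 7 UMIs in an Eppk1 knockout cell) marked cells with type 2 genes.

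The other Cd207-low cells did not carry the label. Fibroblast markers at 1% or more of the UMIs with class II genes below 1% were found in 23 wildtype and 5 Eppk1 knockout cells, of which 21 and 4 had entered through Zbtb46 alone. Their fibroblast markers had a median of 2.77% and 2.97% of the UMIs, class II genes reached at most 0.175% and 0.0118%, and Ptprc, the common gene of leukocytes, had a UMI in 1 and 0 of them. Their collagen UMIs came close to the limit of 2%, with maxima of 2.00% and 1.96%. A further 4 Eppk1 knockout cells, and 0 wildtype cells, combined class II genes and Ccr7 with 9 to 295 UMIs of B and plasma cell markers. The remaining 2 and 4 cells included cells with 26 and 201 UMIs of endothelial markers and an Eppk1 knockout cell with 46 UMIs of T cell genes. Cd207-low is therefore used below as the name of the rule, not of a cell type.

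**Figure D2:**
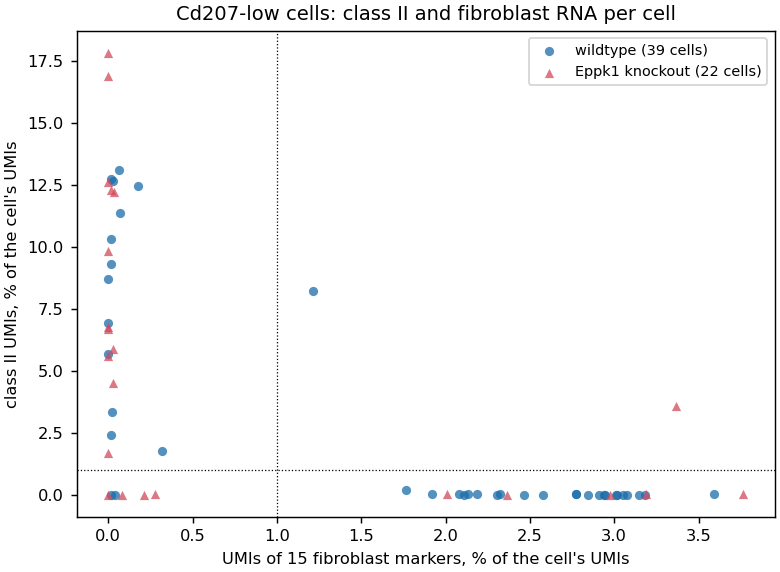
Each point is 1 Cd207-low cell, with the percent of its UMIs from 15 fibroblast markers (x axis) and from the 4 class II genes (y axis), by library. Dotted lines mark 1%, and only 1 cell per library lay above both. Fibroblast markers at 1% or more with class II genes below 1% were found in 23 of 39 wildtype (circles) and 5 of 22 Eppk1 knockout cells (triangles).

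Levels differed widely between Cd207-high and Cd207-low cells. Only a description is given, since the cells were chosen and split by their own counts and 23 wildtype and 5 Eppk1 knockout Cd207-low cells held fibroblast markers. Of 3628 genes counted, 529 were at least 2-fold higher in Cd207-high cells in both libraries (14.6%) and 339 at least 2-fold lower (9.34%). Class II genes were higher for 8 of 11 counted and lower for 0. Langerhans cell genes were higher for 9 of 17 counted and lower for 2. Tbc1d4, a regulator of glucose transporter traffic, was at 445 CPM against 1 UMI in wildtype Cd207-low cells and at 444 CPM against 0 UMIs in the Eppk1 knockout library. St14, which encodes the protease matriptase, was at 1003 against 7.19 CPM and 861 against 5.98 CPM. Mmp9, a protease that degrades basement membrane, was at 152 and 206 CPM and had 0 UMIs in Cd207-low cells of both libraries. In the opposite direction, all 13 fibroblast markers counted were lower in Cd207-high cells. Keratinocyte markers were higher in them for 15 of 16 counted and plakins for 4 of 7, and the part of either cell type's RNA in these counts was not tested. Also lower were Procr (35.7 against 1374 CPM and 14.8 against 544 CPM) and Col4a1 (22.8 against 710 CPM and 22.8 against 748 CPM). Ccl21a, a chemokine of lymphatic vessels, had 0 UMIs in Cd207-high cells, and 145 of its 146 wildtype and all 356 of its Eppk1 knockout UMIs in Cd207-low cells came from 1 cell each. When Cd207-low cells were limited to the 23 with class II RNA, 391 of 3092 genes were higher (12.6%) and 168 lower (5.43%) in Cd207-high cells. Of the 168, 71 were also among the 339 above. Keratinocyte markers were still higher in Cd207-high cells for 12 of 16 counted and plakins for 5 of 7, and fibroblast markers were lower for 7 of 7. Class II genes were then higher for 1 (Ciita) and lower for 1 (Ifi30) of 11, a count that follows a choice of cells by their class II share. Cxcl1 and Gfpt2 changed direction (2.05 and 2.77 on the log2 scale, the smaller of both libraries). Mfge8 had 0 UMIs among the 91659 and 48546 UMIs of those 23 cells.

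Members were next compared with neighbouring myeloid cells. Cells with 3 or more UMIs of Il1b, Ccr2, Mefv and Lyz1 that were at least as many as the sum of the dendritic genes, and with C1q below its limit, are called monocyte-like after that rule only (127 and 156 cells). They also held class II RNA, with Cd74 at 28123 and 37503 CPM. Of 5780 genes counted, 444 were at least 2-fold higher in members in both libraries (7.68%) and 405 at least 2-fold lower (7.01%). Mfge8 was at 3827 and 5023 CPM in members and at 229 and 313 CPM in monocyte-like cells. P2rx2, an ATP-gated ion channel, was at 66.7 and 105 CPM in members, against 3 UMIs per library in monocyte-like cells, and Wnt9a, a Wnt ligand, at 63.2 and 87.8 CPM against 3 and 7 UMIs. Clec4e, a receptor for microbial glycolipids, had 0 UMIs in the 1424944 and 911226 UMIs of members but 283 and 343 UMIs in monocyte-like cells. Mrc1, the mannose receptor of macrophages, was at 16.8 and 13.2 CPM in members and at 582 and 737 CPM in monocyte-like cells, and the iron transporter gene Slc11a1 at 2.81 and 2.19 CPM against 192 and 109 CPM.

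By list, Langerhans cell genes were higher in members for 8 of 18 counted and lower for 2, and type 1 dendritic cell genes higher for 4 of 7 (medians 1.22 and 1.51 by library). Type 2 dendritic cell genes were lower for 6 of 13 and higher for 0, chemokines and receptors lower for 6 of 10 and higher for 2, and macrophage markers lower for 3 of 5. Fibroblast markers were higher for 12 of 15 and lower for 1. With Cd207-high cells alone in place of all members, fibroblast markers were higher for 0 of 9 counted and lower for 1, and the counts over all 5309 genes were 352 higher (6.63%) and 499 lower (9.4%). Type 1 dendritic cell genes were then higher for 2 of 5, with a median log2 ratio of -1.15 in the wildtype and 0.86 in the Eppk1 knockout library. Class II genes were higher for 0 of 13 and lower for 2 in all members, but higher for 1 and lower for 0 in Cd207-high cells alone. Against C1q macrophages (665 and 915 cells), 1155 of 8660 genes were higher in members (13.3%) and 1206 lower (13.9%). Class II genes were higher for 8 of 13 and lower for 3, all 15 macrophage markers were lower, and interferon-stimulated genes were lower for 18 of 23. Fibroblast markers were higher for 13 of 15 and keratinocyte markers for 13 of 20 in the same comparison.

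**Figure D3:**
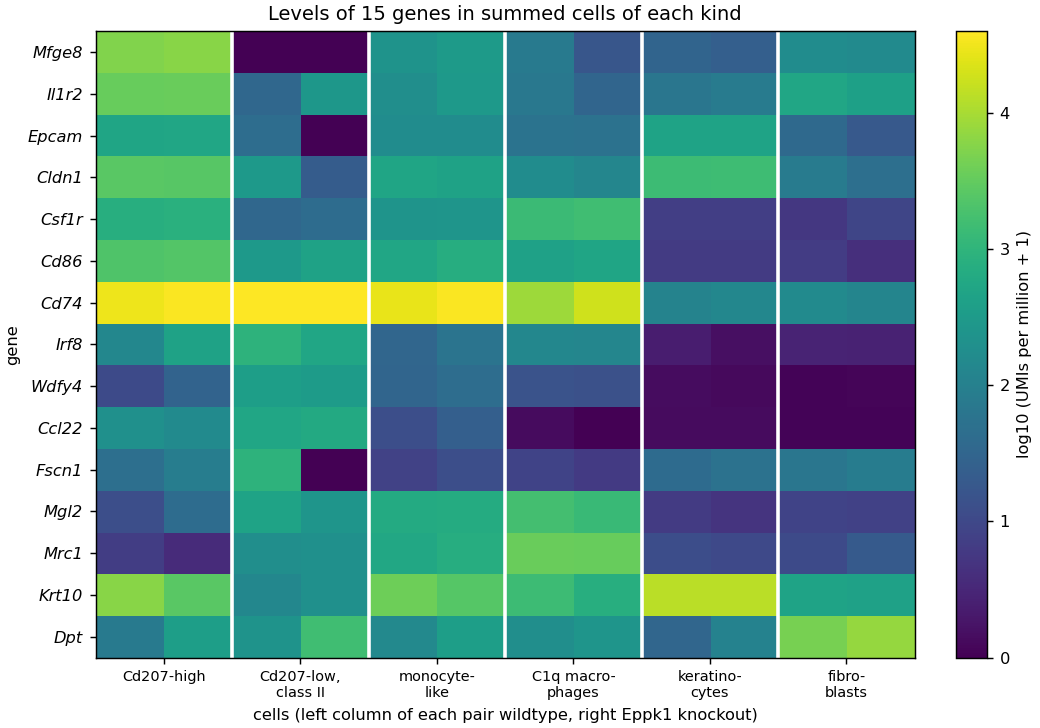
Colour gives the level of 15 genes (rows) as log10 of CPM plus 1, in summed cells of 6 kinds (columns, wildtype on the left and Eppk1 knockout on the right of each pair). Mfge8 stood at 5388 and 6142 CPM in Cd207-high cells and at 0 UMIs in Cd207-low cells with class II RNA. Irf8 stood at 133 and 448 CPM in the former and at 927 and 515 CPM in the latter, where 1 cell held 24 of the 25 Eppk1 knockout UMIs.

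Members made up 2.01% of filtered cells in the wildtype (178 of 8875, interval 1.72 to 2.32) and 1.53% in the Eppk1 knockout library (132 of 8617, interval 1.28 to 1.81). The intervals overlapped slightly. Cd207-high cells, without the fibroblast-marker cells among the Cd207-low members, made up 1.57% (interval 1.32 to 1.85) and 1.28% (interval 1.05 to 1.54), with wider overlap. Among all cells of the member, monocyte-like and C1q rules, the share was 18.4% (178 of 970, interval 15.96 to 20.9) and 10.97% (132 of 1203, interval 9.26 to 12.9), and these intervals did not overlap. For Cd207-high cells alone it was 14.3% (interval 12.2 to 16.7) and 9.14% (interval 7.57 to 10.9). C1q macrophages numbered 665 and 915 cells and keratinocytes 4450 and 3512 in the same libraries, and the share was read against both denominators for that reason. Cd207-high cells were 78.1% of members in the wildtype (interval 71.3 to 83.9) and 83.3% in the Eppk1 knockout library (interval 75.9 to 89.3). Each share rests on 1 library, and differences in tissue sampling or dissociation cannot be told apart from genotype.

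Genotypes were then compared within Cd207-high cells, which the rule did not use. Their summed UMIs were 1007948 and 744060 without mitochondrial genes. A gene was counted as different when its ratio of Eppk1 knockout over wildtype CPM was at least 2-fold with an interval that left out equality. Of 5358 genes with 50 or more UMIs, 110 were higher in the Eppk1 knockout library (2.05%) and 167 were lower (3.12%), and the median log2 ratio was -0.02. In the cells with keratins under 0.1%, 105 of 3524 genes were higher (2.98%) and 30 lower (0.851%), so that the larger count changed sides. Without the droplets whose barcode occurred in both libraries, 105 genes were higher and 80 lower, Hmgcs1 was at -1.11, Mpeg1 at 2.77 and Irf8 at 1.54 on the log2 scale, the cholesterol list had 5 genes lower (median -0.70), and members were 1.86% and 1.51% of cells. Differences in these sums cannot be separated into fewer cells with a gene and less RNA per cell unless the share of cells is also given.

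Part of the cholesterol synthesis list was lower in the Eppk1 knockout library by the size rule. Cholesterol is made from acetyl-CoA by a chain of enzymes that the factor encoded by Srebf2 controls. Of the 23 genes of the list, 15 had enough UMIs, and 0 were higher and 7 lower by the size rule. Over all genes, 2.05% were higher and 3.12% lower. The list had a median log2 ratio of -0.96 against -0.02 for all genes. Hmgcs1 (chr13:119690379-119708260), the synthase at the entry of the pathway, was at 544 CPM in wildtype cells, against 254 CPM in Eppk1 knockout cells, a log2 ratio of -1.10 (interval -1.34 to -0.86). Cyp51 (chr5:4081145-4104746), which encodes lanosterol demethylase, was at 246 and 101 CPM (-1.28, interval -1.68 to -0.91). Fdps, Fdft1, Msmo1 and Sc5d, enzymes of the middle and late steps, stood between -1.21 and -1.01 on the log2 scale. Sqle (-0.69), which encodes squalene epoxidase, did not reach the size rule, and Pmvk, a kinase of an early step, stood at 176 and 164 CPM (-0.10).

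The promoter of Hmgcs1 is shown because Hmgcs1 is the list's most abundant gene in these cells. Capitals mark a match to TCACNCCAC, the sterol regulatory element bound by the Srebf2 product (bases before the start site, RefSeq, GRCm38.p6, plus strand, chr13:119690101-119690350).
Hmgcs1: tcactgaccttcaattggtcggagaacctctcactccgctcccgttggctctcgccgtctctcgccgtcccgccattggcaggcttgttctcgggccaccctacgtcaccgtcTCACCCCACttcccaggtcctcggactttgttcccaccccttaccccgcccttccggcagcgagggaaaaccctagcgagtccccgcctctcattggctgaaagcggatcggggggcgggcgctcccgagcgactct
The match lay 129 to 137 bases before the start. Searched on both strands, the motif occurred in 346 of 32851 promoters (1.05%) and in 1 of 20 promoters of the cholesterol list, which cover 17 of its genes. It does not overlap the Y box core.

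In single cells the difference showed as fewer cells with a UMI. After each cell was thinned to 2000 UMIs, which kept 135 wildtype and 106 Eppk1 knockout Cd207-high cells, Hmgcs1 was found in 48.1% (interval 39.5 to 56.9) and 27.4% (interval 19.1 to 36.9) of them. Without thinning the shares were 68.3% and 49.1%. In fibroblasts, thinned in the same way, Hmgcs1 was found in 21.5% and 15.6% of cells, and in keratinocytes in 54.4% and 47.4%. Keratinocyte RNA moved with genotype as well, since the 20 keratinocyte markers summed to 26682 CPM in wildtype Cd207-high cells, against 14801 CPM in those of the Eppk1 knockout, with Krt10 the most abundant. In the Cd207-high cells with keratins under 0.1%, Hmgcs1 was at 427 and 136 CPM (-1.64, interval -2.06 to -1.25), and Cyp51 at 162 and 59.1 CPM (-1.44), while Fdps was at -0.20 and the list stood at 0 higher and 4 lower of 12, with a median of -0.78. Over all 3524 genes counted in those cells, 2.98% were higher and 0.851% lower. The ratios of Hmgcs1 and Cyp51 were thus as large or larger in the cells with keratins under 0.1%. The values were not kept when the cell filter was dropped: the list median was then -0.38, Hmgcs1 was at -0.29 and 0 genes of the list were lower by the size rule. Without the 6 cells per library that held 2 or more T cell UMIs, Hmgcs1 was at -0.99 and 2 genes of the list were lower. The number of list genes lower by the size rule was also 3 without members with 1% or more keratin UMIs (median -0.61), 3 as a mean over cells (-0.57) and 2 with cells thinned to 2000 UMIs (-0.64), but 10 without the highest doublet scores (-1.29). Over all genes, 59 were lower without members with 1% or more keratin UMIs, 94 as a mean over cells and 17 with thinned cells. The count was 85 without the members with T cell UMIs and 83 with no cell filter, against 167 in the main setting. The number of list genes past the size rule thus changed with these settings, as did the count over all genes where given. The list median stayed below 0 in each setting for which it is given here.

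The cholesterol list was then read in other cells of the same mice. In monocyte-like cells its median log2 ratio was -0.78 against -0.06 for all genes, with 0 higher and 6 lower of 16, where 1.04% and 3.05% of all genes were higher and lower. Keratinocyte markers moved with genotype in monocyte-like cells too (22147 and 12417 CPM summed, 0 higher and 5 lower of 19). Their part in the values of the cholesterol list was not tested. In keratinocytes the median was -0.35 against -0.01, and 0 of 23 passed the size rule in either direction (0.89% and 1.18% of all genes). In C1q macrophages the median was -0.19 against -0.12 for all genes, with 1 higher and 0 lower of 23 (1.46% and 3.22% of all genes). There, 6 of the 23 genes lay above 0, against 3647 of 9871 over all genes. The largest log2 ratio of the list was 2.94, and its summed levels were 1096 and 1262 CPM. Hmgcs1 was at 243 and 130 CPM in monocyte-like cells (-0.89), at -0.35 in C1q macrophages and at -0.35 in keratinocytes. Whether the cell types differ in this was not tested.

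Fkbp5 (chr17:28399094-28517527), a chaperone gene induced by glucocorticoids, was the gene with the lowest ratio among genes seen in 25% of cells or more after the keratin gene Krt77. It was at 73.4 and 21.5 CPM (-1.74, interval -2.65 to -0.98). With keratins under 0.1% it had 36 and 11 UMIs (-1.65, interval -2.82 to -0.69), too few to be counted by the size rule. Fkbp5 was found after thinning in 18.5% (interval 12.4 to 26.1) and 3.77% (interval 1.04 to 9.38) of cells. It was lower in keratinocytes too (66.2 and 18.6 CPM, -1.83), where thinned shares were 11.4% and 3.63%, and in monocyte-like cells (-1.13). In C1q macrophages it was at 180 and 132 CPM (-0.45, interval -0.60 to -0.30) and did not reach the size rule. Fkbp5 was the only gene of the glucocorticoid list past the size rule, 1 of 19, where 3.12% of all genes were lower. The median of the list was -0.14 against -0.02 for all genes, and 5 of 19 lay above 0. Tsc22d3 was at 550 and 531 CPM (-0.05) and Per1 at 502 and 477 CPM (-0.07).

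Further genes among the 10 lowest were Stard4, a sterol carrier (97.2 and 32.3 CPM, -1.57), Lpin1, a phosphatidate phosphatase (80.4 and 29.6 CPM, -1.42), P2ry13, an ADP receptor (84.3 and 32.3 CPM, -1.37), the mitochondrial ubiquitin ligase gene Mul1 (-1.28) and the spermidine synthase gene Srm (-1.55). With keratins under 0.1% these were at -1.42, -1.75, -1.83, -1.46 and -1.12. Krt77, Sbsn and Hspb1, which are abundant in differentiating keratinocytes, stood among the 10 lowest as well (-1.83, -1.53 and -1.39) but at -0.56, -0.36 and -0.29 with keratins under 0.1%. Without members with 1% or more keratin UMIs, Krt77 and Sbsn were higher in the Eppk1 knockout library (1.28 and 1.02).

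Of the higher genes seen in 25% of cells or more, Mpeg1 (chr19:12460779-12465283), which encodes the pore-forming protein perforin-2, had the highest ratio. It was at 32.7 CPM in wildtype cells, against 305 CPM in Eppk1 knockout cells (3.20, interval 2.69 to 3.79), with a UMI in 14.4% and 39.1% of cells. Irf8 was at 133 and 448 CPM (1.75, interval 1.46 to 2.05), and after thinning in 17.8% (interval 11.7 to 25.3) and 32.1% (interval 23.3 to 41.8) of cells, compared with 0.423% and 0.332% of fibroblasts. The Xcr1 and Clec9a cells held part of these UMIs. Without them, Mpeg1 was at 1.68 and Irf8 at 1.31, H2afx fell from 1.42 to 0.77, Psap from 1.27 to 0.42, and Ppt1 turned from 1.37 to -0.20. Fgl2, a fibrinogen-like protein secreted by leukocytes, was at 170 and 427 CPM (1.33), with a UMI in 33.1% and 57.3% of cells, and was at 1.27 without those cells. Acvrl1 (17.9 and 61.8 CPM, 1.77), Tmem164 (1.56) and Klrc1 (1.52) rested on fewer than 50 UMIs per library. For Ifi205 (115 and 353 CPM, 1.62), 1 cell held 68 of 116 wildtype UMIs and 1 cell 159 of 263 Eppk1 knockout UMIs. In monocyte-like cells Mpeg1 was at 0.04, Irf8 at 0.80 and Fgl2 at -0.04, and the difference from Cd207-high cells was not tested.

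**Figure D4:**
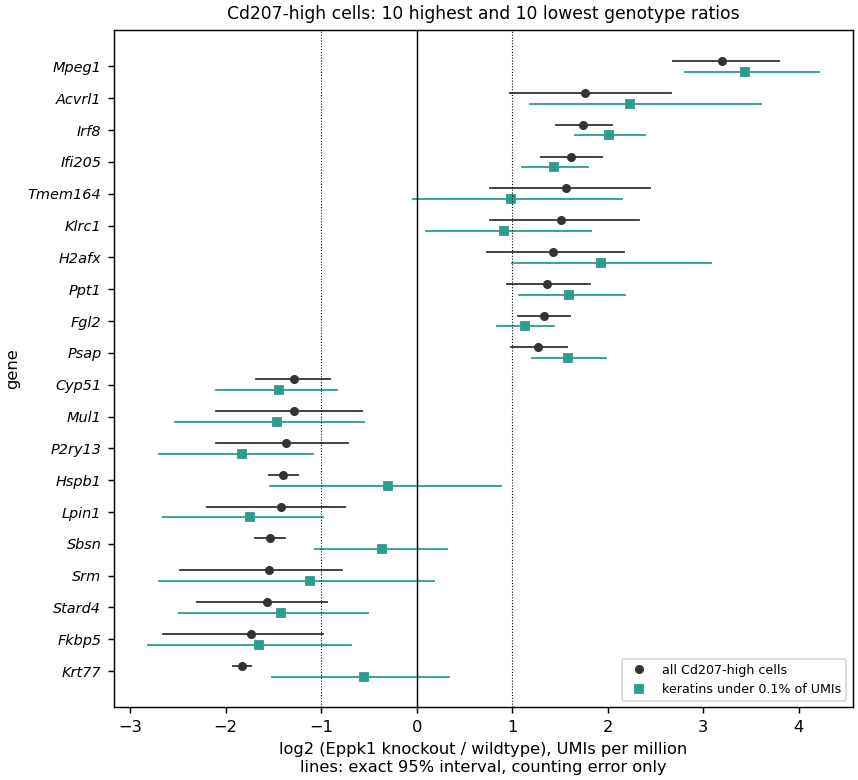
Log2 ratio of Eppk1 knockout over wildtype CPM in Cd207-high cells, with its exact 95% interval, for the 10 highest and 10 lowest genes with a UMI in 25% or more of either library's cells. Circles give all Cd207-high cells and squares those with keratins under 0.1%, in which Krt77, Sbsn and Hspb1 lay at -0.56, -0.36 and -0.29.

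Of 17 Langerhans cell genes with enough UMIs, 0 passed the size rule, and their median was 0.10. With 2.05% of all genes higher and 3.12% lower, a count of 0 in a list of this size is near the background and is no result about the list. Mfge8 was at 0.19 (interval 0.13 to 0.25), Epcam at 0.07 (interval -0.12 to 0.26), and Runx3, a transcription factor that Langerhans cells need, at 225 and 383 CPM (0.77, interval 0.51 to 1.02). The list summed to 16379 and 17461 CPM in all Cd207-high cells but to 21502 and 19887 CPM with keratins under 0.1%, where its median was -0.01, Mfge8 was at -0.10, Epcam at -0.04 and Runx3 at 0.62, so that the sum changed direction. Class II genes had a median of 0.30, and 1 of 14 passed, H2-Ob, which encodes a chain of the class II regulator H2-O (27.8 and 64.5 CPM, 1.20). H2-Aa (17584 and 21289 CPM) was at 0.28, H2-Ab1 at 0.31, H2-Eb1 at 0.28 and Cd74 at 0.28. With keratins under 0.1%, H2-Aa was at 25905 and 26530 CPM (0.03) and Cd74 at 45054 and 45922 CPM (0.03). The ratios of H2-Aa and Cd74 were thus above 0 over all Cd207-high cells and near 0 in those with keratins under 0.1%. In monocyte-like cells the class II list had a median of 0.40, with 0 of 13 past the size rule. In C1q macrophages its median was 0.997, with 6 higher of 12, where 1.46% of all genes were higher. Whether the cell types differ in this was not tested.

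**Figure D5:**
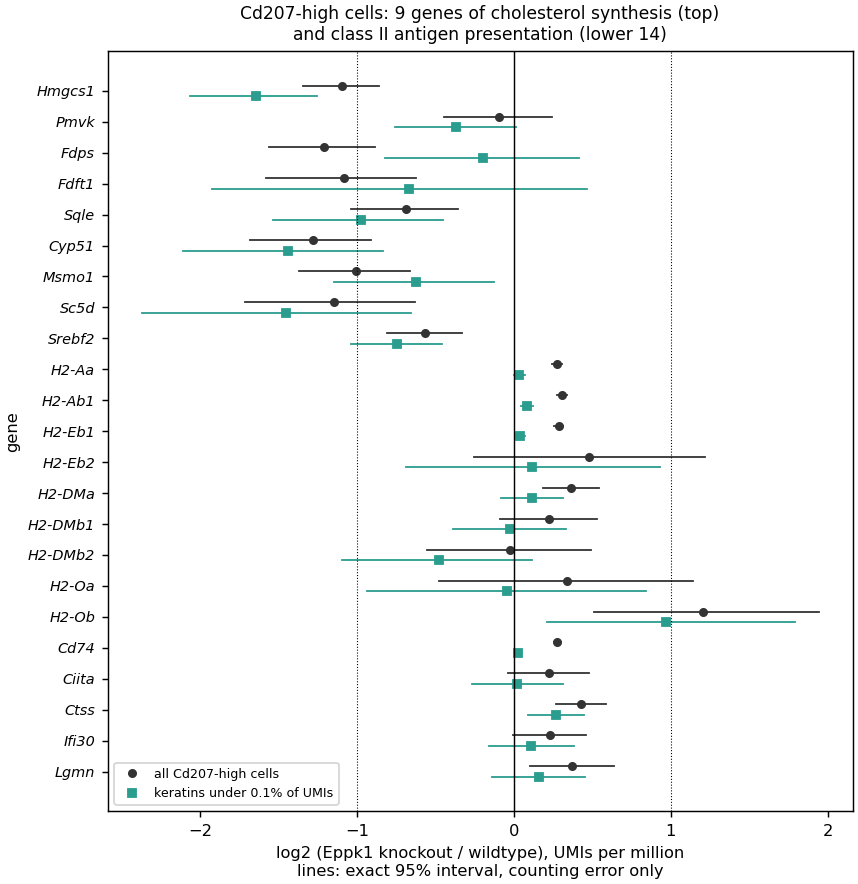
Log2 ratio of Eppk1 knockout over wildtype CPM in Cd207-high cells, with its exact 95% interval, for the 9 genes of the cholesterol list named in the text (top) and the 14 class II genes (bottom) with at least 50 UMIs. Circles give all Cd207-high cells and squares those with keratins under 0.1%; the 9 genes lay below 0 in the former, and H2-Aa moved from 0.28 to 0.03.

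The counts of the other immune lists are given as a description, and those of 0 are again near the background. Costimulation and checkpoint ligands stood at 0 of 7 (median 0.17), with the costimulator gene Cd86 at 2191 and 2290 CPM. Class I genes stood at 0 of 14 (0.10), mature and migratory genes at 0 of 13 (0.11), type 2 genes at 0 of 8 (0.12), and interferon-stimulated genes at 0 of 4 (0.27). The few with values past the rule are set beside 2.05% of all genes higher and 3.12% lower. Type 1 genes stood at 3 higher of 6 (1.01), namely Irf8, Ifi205 and Naaa, of which Naaa was at 26 and 120 UMIs, 37 of them in 1 cell. Xcr1 and Clec9a cells, 1 in the wildtype and 6 in the Eppk1 knockout library, were part of these sums. Cytokines stood at 2 higher of 6 (0.25), of which Il6 was at 27 and 73 UMIs with 24 and 65 of them in 1 cell each. Pattern recognition stood at 1 higher of 6 (0.28), and chemokines and receptors at 1 lower of 7 (-0.20). Early genes of dissociation, which rise while tissue is digested, stood at 0 of 21 (-0.27).

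Markers of other cells were read in the same sums, where 2.05% of all genes were higher and 3.12% lower. Fibroblast markers were higher for 6 of 9 (median 1.35, 524 and 1441 CPM summed). Dpt was the most abundant, with 60 of 77 wildtype UMIs and 174 of 275 Eppk1 knockout UMIs in 1 cell each. T and NK markers stood at 1 higher of 7 (1050 and 992 CPM, Il7r the most abundant), monocyte and neutrophil markers at 2 higher of 5 (785 and 1003 CPM, Nr4a1 the most abundant, with S100a9, Csf3r, Cxcr2 and Retnlg at 0 UMIs), macrophage markers at 0 of 2 (296 and 296 CPM, Adgre1), B and plasma markers at 0 and 6.72 CPM, and endothelial markers at 37.7 and 12.1 CPM. Keratinocyte markers were lower for 5 and higher for 2 of 19. Beyond the values with keratins under 0.1% given above, the part of these markers in the other results was not tested. Among the plakins, Dsp, the desmosome protein of epithelia, was at 2277 and 1203 CPM (-0.92), Ppl at -0.95 and Evpl at -0.99, while Plec, found in over 80% of the cells of both libraries, was at 480 and 625 CPM (0.38). With keratins under 0.1%, Dsp was at 28 and 16 UMIs.

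In Cd207-low cells the genotypes could not be compared like for like, since 23 of 39 wildtype but 5 of 22 Eppk1 knockout cells held fibroblast markers and 0 and 4 held B and plasma markers. Of 2592 genes, 178 were higher in the Eppk1 knockout library (6.87%) and 316 were lower (12.2%). Interferon-stimulated genes were lower for 12 of 13 and higher for 0, with a median log2 ratio of -3.27 and summed levels of 5441 and 1190 CPM. Isg15, a ubiquitin-like modifier, was at 379 and 11 UMIs, and Ifit1 at 121 and 2 UMIs. Fibroblast markers summed to 20362 CPM in wildtype cells, against 13711 CPM in the Eppk1 knockout library. Among the 10 lowest genes were Adh1 (99 and 0 UMIs), the collagen crosslinking enzyme gene Lox (193 and 4 UMIs) and the coagulation initiator gene F3 (184 and 2 UMIs). Among the 10 highest, Ighm, the heavy chain of IgM, was at 19 and 3815 UMIs, of which 3557 came from 1 cell, and Cd36 was at 12 and 208 UMIs. In the 23 cells with class II RNA, 414 genes had 50 or more UMIs, of which 42 were higher (10.1%) and 43 lower (10.4%), and 0 interferon-stimulated genes had enough UMIs, with summed levels of 1036 and 824 CPM (log2 interval -0.90 to 0.22). Class II genes there stood at 0 of 7, with a median of 0.05, but these cells were chosen by their class II share, so the value is a description only. Fibroblast markers stood at 5 higher of 5 (2182 and 8816 CPM). Those sums came mainly from 1 cell each, a wildtype cell of 13681 UMIs with 1.21% and an Eppk1 knockout cell of 12661 UMIs with 3.36% fibroblast markers. The other cells held at most 0.317% and 0.0326%. Keratinocyte markers were lower for 4 of 4 (5073 and 618 CPM), and keratins at 0.1% or more were found in 4 of 14 wildtype and 0 of 9 Eppk1 knockout cells. Early genes of dissociation were lower for 7 of 19 (29097 and 19652 CPM).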

How the data were processed

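Single cells of whole skin of 1 wildtype and 1 Eppk1 knockout mouse were compared. The authors made UMI counts per gene and cell using Cell Ranger (version 8.0.1, mm10), and these counts were deposited by the authors without normalization, 1 library per genotype. The cell filter of the study was applied here, the 13 mitochondrial genes were left out of sums, and UMIs were summed per set of cells and given as CPM, with 0.5 UMI added to each sum in a ratio. Intervals were exact at the 95% level (Clopper-Pearson for shares, Poisson for levels, conditional binomial for ratios). As a floor set apart from these intervals, a count of 0 was taken to allow up to 3 counts. Genes were counted as different at a log2 ratio of 1 or more either way with an interval that left out 0 (genotype, genes with at least 50 UMIs over both libraries) or the same direction in both libraries (sets of cells, at least 50 UMIs in each). The procedure was tested on simulated data. The simulated sums varied by counting error alone, as the intervals assume, so the test does not cover spread between cells or mice. Named genes were those of the rule, the plakins, the 10 highest and 10 lowest genotype ratios in each set among genes seen in 25% or more of either library's cells, the 12 highest and 12 lowest of Cd207-high over Cd207-low cells, the 10 highest and 10 lowest against monocyte-like cells, and leading members of each list. Some genes of the cholesterol list enter its counts and median but are not reported here. Any further gene was picked with its value in view. The members and all lists were chosen with earlier results of these data known. Doublets were left in, since the threshold of Scrublet (scanpy 1.11.5, expected rate 0.06) marked 0 wildtype and 221 Eppk1 knockout cells, and leaving out the 5% highest scores was an alternative. Python 3.11.15, numpy 2.4.6, pandas 2.3.3, scipy 1.17.1, R 4.3.3, edgeR 4.0.16 (TMM) and DESeq2 1.42.0 (size factors) were used. Gene coordinates came from GENCODE M21 on GRCm38.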

Additional observations from a re-analysis of the deposited data

How the results depend on the processing

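Of 176 values for counts, shares and Eppk1 under alternatives, 132 stayed the same. This meant within 1.5 times for counts, within the interval for shares, and an unchanged call by the size rule for Eppk1. With no cell filter, genes lower in Eppk1 knockout Cd207-high cells numbered 83, genes higher in Cd207-low cells 367 and genes lower in Cd207-high than Cd207-low cells 541. Without the highest Scrublet scores, 70 genes were higher in Cd207-high cells of the Eppk1 knockout. Genes lower there numbered 80 without droplets shared by both libraries, 85 without members with T cell UMIs, 59 without members with 1% or more keratin UMIs, 94 as a mean over cells and 30 with keratins under 0.1%, where Eppk1 was at -1.06. With a sum of at least 5 UMIs, wildtype members were 1.67% of cells and Cd207-high cells 91.2% of them, 74 genes were higher and 171 lower in Cd207-low cells of the Eppk1 knockout, and 185 were lower in Cd207-high than Cd207-low cells. Thinned to 2000 UMIs, these counts (higher, lower) were 21 and 17 for genotype in Cd207-high cells, 20 and 80 in Cd207-low cells, and 221 and 61 between both sets. With at least 1 UMI they were 396 and 389, 1004 and 529, and 1108 and 2064, and with at least 200 UMIs 20 and 35, 18 and 81, and 243 and 74. Without the cell with the most UMIs of each gene, 60 genes were higher in Cd207-high and 94 in Cd207-low cells of the Eppk1 knockout, and 217 were lower between the sets. The denominator of the 3 myeloid rules gave 18.4% and 10.97%. With Cd207-low cells limited to class II RNA, members were 1.72% of wildtype cells, Cd207-high cells 90.8% and 92.4% of members, 42 and 43 genes differed by genotype in Cd207-low cells, and 168 were lower between the sets. The direction turned for Krt77 (1.28) and Sbsn (1.02) without members with 1% or more keratin UMIs, for Ppt1 (-0.20) without Xcr1 and Clec9a cells, and, with class II RNA only, for Txnip (-0.79) between genotypes and for Cxcl1 (2.05) and Gfpt2 (2.77) between the sets. The causes were not tested. TMM moved all ratios of Cd207-high cells by 0.02 and of Cd207-low cells by 0.04. No paired analysis was possible because each genotype is 1 library. Depth limits genes under 50 UMIs, and no alternative replaces a second mouse per genotype.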

Other observations

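Cells that met the marker sums but not the cell filter numbered 16 in the wildtype and 15 in the Eppk1 knockout library. Of the filtered cells outside the members, 27 and 22 held 2 or more Cd207 UMIs. The Y-linked genes Ddx3y, Eif2s3y, Uty and Kdm5d had 0 UMIs in Cd207-high cells of both libraries.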
